A study of Mus musculus with 11 samples.

Results

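The genes described here make up the steroid-producing programme of the Leydig cell, the cell between the seminiferous tubules that makes testosterone. They are Star, Cyp11a1, Hsd3b1, Hsd3b6, Cyp17a1, Hsd17b3, Insl3, Lhcgr, Nr5a1 and Cyp19a1. They were chosen by name for their known roles, but with earlier results of these data known. All 10 of them had a row among the 24411 genes of the count table. RNA came from whole testis stripped of its capsule, and no mouse had received a treatment. WT mice (4 samples) were C57Bl/6J. Irp1_KO mice (4 samples) lacked Aco1, the gene of iron regulatory protein 1, in every tissue, and Irp2_KO mice (3 samples) lacked Ireb2, the gene of iron regulatory protein 2, likewise in every tissue. By the study's methods WT and Irp1_KO mice were 20 weeks old, the Irp1_KO allele was Aco1tm1Roua on a C57Bl/6J background, and WT mice were littermates from heterozygous parents. Age, strain, allele and littermates of the Irp2_KO mice were not given in the sources used here, so the genotype cannot be told apart from any such difference in the comparisons that hold them. Because the whole organ was sequenced, fewer Leydig cells and less RNA per Leydig cell cannot be told apart in any value below.

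Leydig cells respond to luteinizing hormone through the receptor Lhcgr and cyclic AMP. STAR moves cholesterol into the mitochondrion, where CYP11A1 turns it into pregnenolone with electrons passed on by ferredoxin reductase and ferredoxin, and HSD3B, CYP17A1 and HSD17B3 then carry the product on to testosterone, which CYP19A1 (aromatase) can convert to estradiol. NR5A1 (SF-1) is the nuclear receptor that binds the promoters of many of these genes, and INSL3 is a peptide hormone of the same cell. Iron enters this pathway directly, since the cytochrome P450 enzymes hold heme and ferredoxin holds an iron-sulfur cluster, and iron regulatory proteins control transcripts of iron metabolism.

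Hsd3b1 and Hsd3b6 gave different results below although they are close copies, so their sequences are shown first. The coding sequence of each was 1122 bases long in GENCODE vM21 (GRCm38), and 1010 of the 1122 aligned bases, or 90.0%, were identical. Of the 1073 windows of 50 bases in the Hsd3b6 coding sequence, 38 (3.54%) occurred exactly in Hsd3b1, so a read of that length in the coding part seldom had both genes as an exact origin. In the first 60 coding bases the copies differed at 7 positions, which are in capitals.
Hsd3b1: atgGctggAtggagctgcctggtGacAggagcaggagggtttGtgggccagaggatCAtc
Hsd3b6: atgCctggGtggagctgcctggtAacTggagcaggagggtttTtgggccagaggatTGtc

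RefSeq promoter windows (GRCm38.p6) of 250 bases before a transcription start were at hand for 7 of the 10 genes, with 10 windows in all. They were searched on both strands for CAAGGTC and CAAGGCC, forms of the NR5A1 site's core that differ in 1 base. CAAGGTC was in 3.32% and CAAGGCC in 5.16% of all 32851 windows, and 8.28% held either. The only window of the 10 with a match was that of Insl3, which held CAAGGTC starting 137 bases and CAAGGCC starting 57 bases before the start, both on the strand of the gene. It is shown because Insl3 had by far the highest level of the genes per kilobase, with the matches in capitals and cut where the GENCODE transcript begins (chr8:71689002-71689213, plus strand). The windows of Hsd3b1 (chr3:98859795-98860044, minus strand) and Hsd3b6 (chr3:98814444-98814693, minus strand) are shown beside it to compare the copies outside their coding parts. A match is a description of letters and not a binding site.
Insl3: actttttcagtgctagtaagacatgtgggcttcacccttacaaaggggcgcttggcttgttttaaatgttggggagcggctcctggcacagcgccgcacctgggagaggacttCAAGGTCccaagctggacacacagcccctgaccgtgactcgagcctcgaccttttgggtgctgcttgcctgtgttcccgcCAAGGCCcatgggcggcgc
Hsd3b1: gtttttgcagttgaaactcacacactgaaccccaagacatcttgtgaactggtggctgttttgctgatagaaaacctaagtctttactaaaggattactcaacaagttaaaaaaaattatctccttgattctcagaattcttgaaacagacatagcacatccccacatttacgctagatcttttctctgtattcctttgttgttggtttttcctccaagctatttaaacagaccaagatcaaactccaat
Hsd3b6: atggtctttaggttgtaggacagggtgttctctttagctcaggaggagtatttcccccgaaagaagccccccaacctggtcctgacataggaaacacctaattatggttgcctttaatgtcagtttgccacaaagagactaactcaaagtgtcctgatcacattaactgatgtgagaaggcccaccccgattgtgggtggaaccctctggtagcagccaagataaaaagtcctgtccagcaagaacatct

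Levels are given as CPM, the counts of a gene scaled by the library's total and its TMM factor. Differences are log2 fold changes with their SE from edgeR's quasi-likelihood test, with Benjamini-Hochberg adjusted p over all tested genes, and a gene is called where the adjusted p is under 0.05. Library totals were 15902473 to 22451417 counts over the 11 samples. Each targeted gene was lower in its own knockout than in WT, though part of the signal remained for both. Aco1 had 9.10, 9.13, 7.93 and 8.17 CPM in Irp1_KO replicates 1, 2, 6 and 7 and 9.80, 12.4, 12.1 and 12.9 CPM in WT replicates 1 to 4, so part of its signal remained (log2 fold change -0.45, SE 0.098, adjusted p = 0.0158, edgeR). This call was lost without Irp1_KO replicate 6 or WT replicate 2, 3 or 4 (adjusted p up to 0.075, edgeR). Ireb2 had 62.0, 61.8 and 62.7 CPM in Irp2_KO replicates 1 to 3 against 131 to 144 CPM in WT (log2 fold change -1.16, SE 0.050, adjusted p = 2.84e-13, edgeR).

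All 10 genes were expressed in every sample and passed the count filter in each comparison. Per kilobase of the longest coding transcript, Insl3 led in WT testis with 798 ± 25.2 CPM per kb (SD, n = 4). Cyp17a1 followed with 64.2 ± 30.2, Hsd3b6 with 41.7 ± 12.1, Cyp11a1 with 26.3 ± 13.3 and Hsd3b1 with 19.6 ± 2.83 CPM per kb. Star had 17.4 ± 6.66, Hsd17b3 11.8 ± 1.31 and Nr5a1 9.67 ± 1.63 CPM per kb, while Cyp19a1 had 2.05 ± 0.306 and Lhcgr 0.518 ± 0.241 CPM per kb. In this order the WT ranges of neighbours overlapped from Cyp17a1 down to Nr5a1, so those places are not separated by the spread between samples, whereas Insl3 lay above and Cyp19a1 and then Lhcgr lay below all others without overlap. Insl3 was first, Cyp17a1 next, and Nr5a1, Cyp19a1 and Lhcgr last in both knockouts too. The Insl3 gene lies wholly within the annotated span of Jak3 on the same strand (1362 bases of overlap), so counts from shared bases depend on how the counting assigned them.

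Hsd17b3 was the only gene of the 10 called in Irp1_KO against WT, and it was higher. Cyp19a1 was the only one called in Irp2_KO against WT, and it was lower. Differences in Hsd3b1, Insl3 and Nr5a1 were called between the knockouts, each with the higher level in Irp1_KO. Over all tested genes 1.02% were called in Irp1_KO against WT (0.581% higher and 0.444% lower), 1.21% in Irp2_KO against WT (0.371% higher and 0.842% lower) and 4.69% in Irp1_KO against Irp2_KO (2.92% higher and 1.76% lower). The groups did not overlap for 2, 1 and 4 of the 10 genes in these comparisons, against 6.63% (3.21% higher and 3.42% lower), 9.23% (4.65% higher and 4.58% lower) and 15.2% (7.5% higher and 7.67% lower) of all tested genes. At an unadjusted p under 0.05 stood 3, 2 and 4 of the 10 genes, against 12.1%, 9.42% and 16.3% of all. The median log2 fold change over the 10 genes was 0.37 in Irp1_KO and 0.00066 in Irp2_KO against WT and 0.25 between the knockouts, while the median over all tested genes was -0.00079, 0.0033 and -0.0019. The comparisons with WT share the same 4 WT samples.

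**Figure D1:**
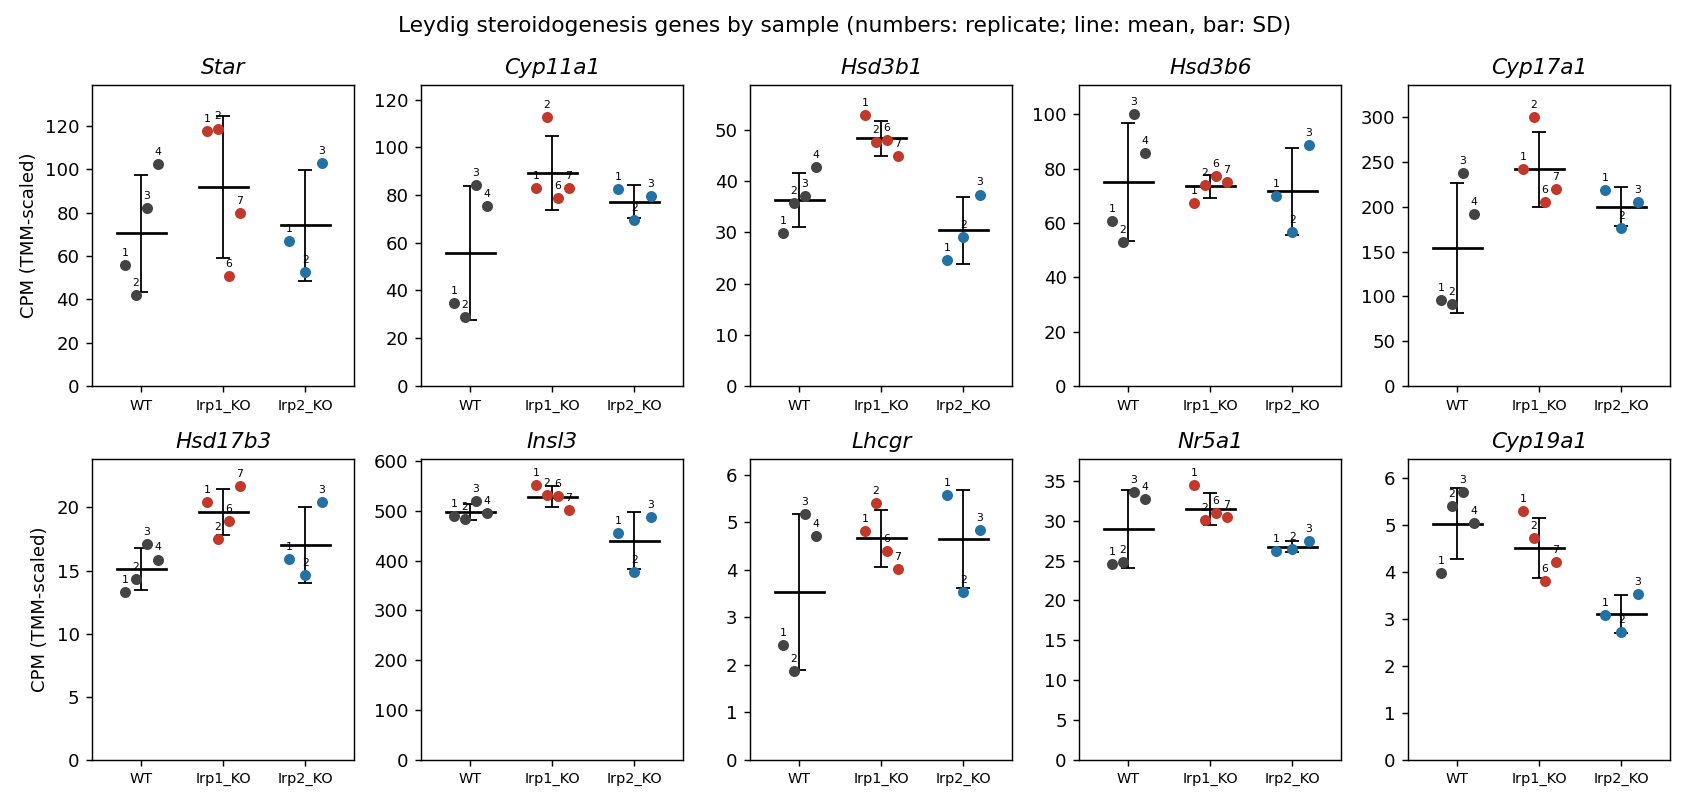
CPM (TMM-scaled, axes from 0) of the 10 genes in each sample of WT, Irp1_KO and Irp2_KO, with the replicate number at each point, a line at the mean and a bar of 1 SD. WT replicates 1 and 2 lie below the other WT samples for 9 of the 10 genes, Cyp19a1 being the exception, by a wide step for Cyp11a1, Cyp17a1 and Lhcgr and a narrow one for Insl3, and all Irp2_KO points for Cyp19a1 lie below the lowest WT point of 3.97 CPM.

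Within WT, Cyp11a1, Cyp17a1, Lhcgr and Star had the highest coefficients of variation of the 10 genes (50.3%, 47.1%, 46.5% and 38.2%). Star, the cholesterol carrier, had 55.9, 41.8, 82.0 and 102 CPM in WT replicates 1 to 4, 117, 119, 50.7 and 79.9 CPM in Irp1_KO replicates 1, 2, 6 and 7, and 66.7, 52.8 and 103 CPM in Irp2_KO replicates 1 to 3. These groups overlapped throughout. Star had a log2 fold change of 0.38 in Irp1_KO (SE 0.39, adjusted p = 0.779, edgeR) and 0.069 in Irp2_KO (SE 0.40, adjusted p = 0.986, edgeR) against WT.

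Cyp11a1, the side-chain cleavage enzyme that makes pregnenolone, had 34.6, 29.0, 84.3 and 75.4 CPM in the WT samples. It had 83.1, 113, 78.7 and 82.8 CPM in Irp1_KO and 82.5, 69.5 and 79.5 CPM in Irp2_KO. WT replicates 1 and 2 were thus below every other sample, while WT replicates 3 and 4 fell among the knockouts. Against WT the log2 fold change was 0.68 in Irp1_KO (SE 0.37, adjusted p = 0.562, edgeR) and 0.47 in Irp2_KO (SE 0.43, adjusted p = 0.862, edgeR), and neither was called.

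Cyp17a1, which carries out the hydroxylase and lyase steps toward androgens, behaved in the same manner sample by sample. It had 95.5, 91.7, 238 and 192 CPM in WT, 243, 300.4, 205 and 219 CPM in Irp1_KO and 218, 176 and 206 CPM in Irp2_KO. Again WT replicates 1 and 2 were the lowest of all 11. For Cyp17a1 the log2 fold change was 0.65 in Irp1_KO (SE 0.36, adjusted p = 0.558, edgeR) and 0.38 in Irp2_KO (SE 0.40, adjusted p = 0.895, edgeR) against WT.

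The 3-beta-hydroxysteroid dehydrogenases differed from each other. Hsd3b1 had 29.9, 35.8, 37.1 and 42.7 CPM in WT, 53.0, 47.6, 47.9 and 44.9 CPM in Irp1_KO and 24.6, 29.2 and 37.4 CPM in Irp2_KO. Every Irp1_KO sample was above every WT and every Irp2_KO sample, and WT and Irp2_KO overlapped. Between the knockouts the log2 fold change was 0.68 (SE 0.13, adjusted p = 0.017, edgeR), a 1.60-fold higher level in Irp1_KO. This call was lost without Irp1_KO replicate 6 (adjusted p = 0.0805, edgeR) and without Irp2_KO replicate 2 (adjusted p = 0.112, edgeR), and with no count filter (adjusted p = 0.0503, edgeR). Against WT the log2 fold change in Irp1_KO was 0.41 (SE 0.090, adjusted p = 0.057, edgeR), just outside the threshold. It passed without WT replicate 1 (adjusted p = 0.00814, edgeR) or WT replicate 4 (adjusted p = 2.01e-04, edgeR), with at least 10 counts asked of every sample (adjusted p = 0.036, edgeR) and with DESeq2 (adjusted p = 1.53e-04). In Irp2_KO against WT it was -0.26 (SE 0.19, adjusted p = 0.793, edgeR).

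Hsd3b6, the copy with the higher mean level per kilobase, had 60.9, 53.2, 100.3 and 85.9 CPM in WT. It had 67.5, 73.8, 77.5 and 75.3 CPM in Irp1_KO and 69.9, 56.6 and 88.6 CPM in Irp2_KO, so that each knockout lay inside the WT range. Its log2 fold change was -0.033 in Irp1_KO against WT (95% interval -0.44 to 0.38, from the SE) and -0.067 in Irp2_KO (95% interval -0.63 to 0.50). The ratio of Hsd3b1 to Hsd3b6 counts, looked at after these values were seen and given without a test, ran from 0.597 to 0.785 in Irp1_KO, from 0.370 to 0.673 in WT and from 0.352 to 0.515 in Irp2_KO.

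Hsd17b3, which reduces androstenedione to testosterone, had 13.3, 14.3, 17.1 and 15.9 CPM in WT and 20.4, 17.5, 18.9 and 21.7 CPM in Irp1_KO. All 4 Irp1_KO samples were above the highest WT sample. This was a log2 fold change of 0.37 (SE 0.083, adjusted p = 0.0232, edgeR), a 1.29-fold higher level. The call was lost without Irp1_KO replicate 1 (adjusted p = 0.124, edgeR), Irp1_KO replicate 7 (adjusted p = 0.0651, edgeR), WT replicate 1 (adjusted p = 0.0853, edgeR) or WT replicate 2 (adjusted p = 0.0911, edgeR), and in 1 fit of all 11 samples (adjusted p = 0.103, edgeR). In Irp2_KO it had 15.9, 14.7 and 20.5 CPM, which overlapped both other groups, and the log2 fold change against WT was 0.17 (SE 0.11, adjusted p = 0.723, edgeR). Against Irp2_KO the level in Irp1_KO had a log2 fold change of 0.20 (SE 0.10, adjusted p = 0.347, edgeR).

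Insl3, the peptide hormone, was the steadiest gene within WT. It had 490, 483, 519 and 496 CPM in WT, a coefficient of variation of 3.16% against 50.3% for Cyp11a1 and 47.1% for Cyp17a1 in the same samples. It had 551, 533, 530.3 and 501 CPM in Irp1_KO and 455, 377 and 488 CPM in Irp2_KO. The knockouts did not overlap, and WT overlapped with each. Between the knockouts the log2 fold change of Insl3 was 0.27 (SE 0.070, adjusted p = 0.0425, edgeR), with more in Irp1_KO. It kept its direction but not its call in 6 of the 7 fits without 1 library. The adjusted p (edgeR) was 0.117, 0.100, 0.0726 and 0.0607 without Irp1_KO replicates 1, 2, 6 and 7, and 0.147 and 0.158 without Irp2_KO replicates 1 and 2. Against WT the log2 fold change was 0.089 in Irp1_KO (SE 0.038, adjusted p = 0.322, edgeR) and -0.17 in Irp2_KO (SE 0.071, adjusted p = 0.421, edgeR), the latter called without Irp2_KO replicate 3 (log2 fold change -0.26, adjusted p = 0.0472, edgeR).

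Lhcgr, the receptor for luteinizing hormone, was covered by 30 to 125 counts a sample. It had 2.41, 1.86, 5.17 and 4.70 CPM in WT, 4.81, 5.40, 4.39 and 4.02 CPM in Irp1_KO and 5.57, 3.54 and 4.84 CPM in Irp2_KO. WT replicates 1 and 2 were the lowest of all samples here too, and the groups overlapped. Lhcgr had a log2 fold change of 0.40 in Irp1_KO (SE 0.29, adjusted p = 0.651, edgeR) and 0.39 in Irp2_KO (SE 0.36, adjusted p = 0.861, edgeR) against WT.

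Nr5a1, the nuclear receptor of steroid-producing cells, had 24.6, 24.9, 33.6 and 32.7 CPM in WT. Irp1_KO samples had 34.5, 30.1, 30.9 and 30.4 CPM and Irp2_KO samples 26.2, 26.5 and 27.5 CPM. The knockouts did not overlap, while WT replicates 1 and 2 lay below Irp2_KO and WT replicates 3 and 4 within the Irp1_KO range. Between them the log2 fold change was 0.24 (SE 0.065, adjusted p = 0.0369, edgeR), a 1.18-fold higher level in Irp1_KO. The call was lost without Irp1_KO replicate 1 (adjusted p = 0.156, edgeR), Irp1_KO replicate 6 (adjusted p = 0.0564, edgeR), Irp2_KO replicate 1 (adjusted p = 0.0875, edgeR) or Irp2_KO replicate 2 (adjusted p = 0.143, edgeR), with DESeq2 (adjusted p = 0.0618) and in 1 fit of all 11 samples (adjusted p = 0.183, edgeR). Against WT the log2 fold change of Nr5a1 was 0.12 in Irp1_KO (SE 0.10, adjusted p = 0.704, edgeR) and -0.12 in Irp2_KO (SE 0.10, adjusted p = 0.844, edgeR).

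**Figure D2:**
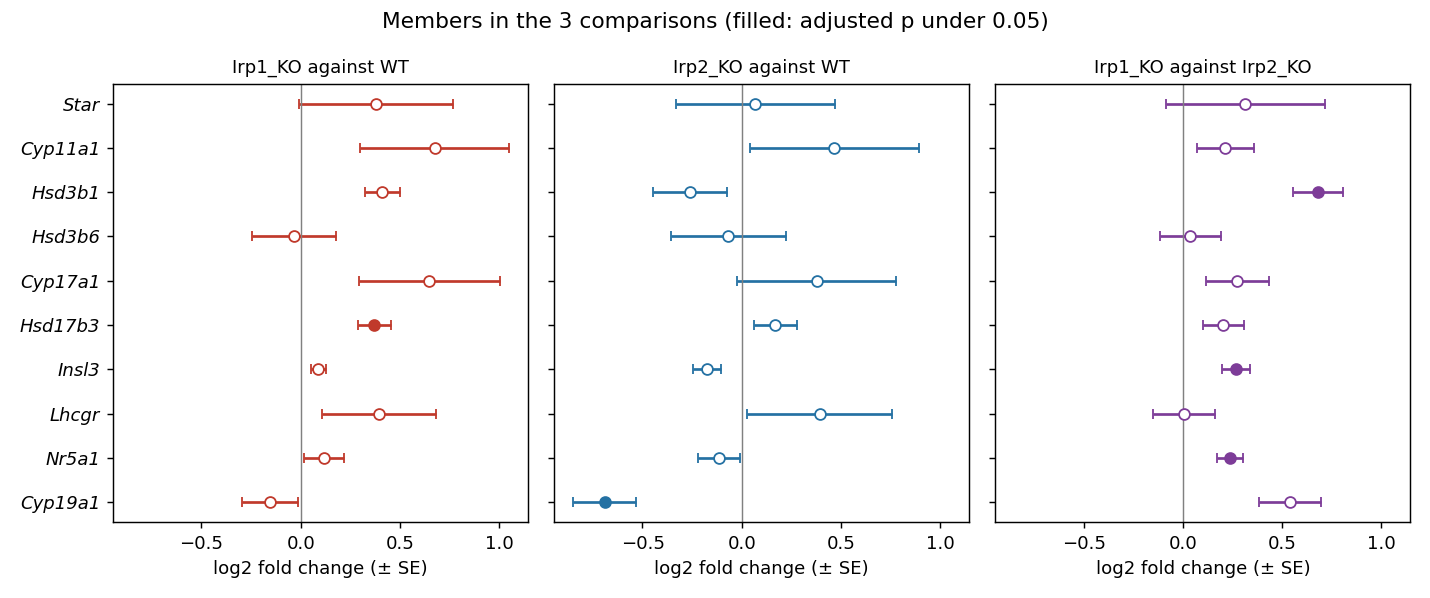
Log2 fold change (x axis, ± SE) of each of the 10 genes in the 3 comparisons, first genotype minus second, with filled points where the adjusted p of edgeR was under 0.05. The SE is 0.288 or more for Star in all 3 comparisons, for Cyp11a1, Cyp17a1 and Lhcgr against WT and for Hsd3b6 in Irp2_KO against WT, and Cyp19a1 at -0.69 in Irp2_KO lies farthest below 0.

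Cyp19a1, aromatase, stood at 3.97, 5.41, 5.69 and 5.03 CPM in WT and at 3.07, 2.72 and 3.52 CPM in Irp2_KO, from 53 to 99 counts a sample over both groups. All 3 Irp2_KO samples were below the lowest WT sample. The log2 fold change was -0.69 (SE 0.16, adjusted p = 0.0258, edgeR), which put Irp2_KO at 0.619 of the WT level. The direction held in all 7 fits without 1 library, but the call was lost without Irp2_KO replicate 1 (adjusted p = 0.0674, edgeR), Irp2_KO replicate 2 (adjusted p = 0.169, edgeR), WT replicate 2 (adjusted p = 0.0762, edgeR), WT replicate 3 (adjusted p = 0.0796, edgeR) or WT replicate 4 (adjusted p = 0.0628, edgeR). Irp1_KO samples had 5.28, 4.72, 3.79 and 4.21 CPM, overlapping WT (log2 fold change -0.15, SE 0.14, adjusted p = 0.716, edgeR) and all above Irp2_KO. Between the knockouts the log2 fold change was 0.54 (SE 0.16, adjusted p = 0.0528, edgeR), which passed without Irp1_KO replicate 6 (adjusted p = 0.0294, edgeR) or Irp2_KO replicate 3 (adjusted p = 0.0424, edgeR), in 1 fit of all samples (adjusted p = 0.0412, edgeR), with no count filter (adjusted p = 0.0432, edgeR) and with at least 10 counts in every sample (adjusted p = 0.0487, edgeR).

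Cyp19a1 (chr9:54165937-54268164, GRCm38.p6) lies 594 kb from Ireb2 (chr9:54862658-54912534), the gene deleted in Irp2_KO. Only genes that passed the count filter in at least 1 comparison were taken from this stretch. Of 20 such genes, the 10 between the pair and 5 beyond each, 19 were tested in Irp2_KO against WT. Of these, 0 were called higher and 1 lower (edgeR), and 7 had an unadjusted p under 0.05, against 9.42% of all tested genes. The gene called was Dnaja4, a heat shock cochaperone located between Cyp19a1 and Ireb2, with 242 CPM on average in Irp2_KO and 287 CPM in WT (log2 fold change -0.25, SE 0.044, adjusted p = 0.0035, edgeR), and its call remained in all 7 fits without 1 library. Gldnos, an antisense transcript of Gldn and the nearest tested gene to Cyp19a1, was listed with a log2 fold change of 0.27 (SE 0.092, adjusted p = 0.221, edgeR), and Dmxl2, the next tested gene, with 0.18 (SE 0.054, adjusted p = 0.138, edgeR). In Irp1_KO against WT, 0 of the 18 genes tested were called (edgeR), with 3 at an unadjusted p under 0.05, against 12.1% of all tested genes.
Cyp11a1 is on the same chromosome, 3.09 Mb beyond Ireb2.

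**Figure D3:**
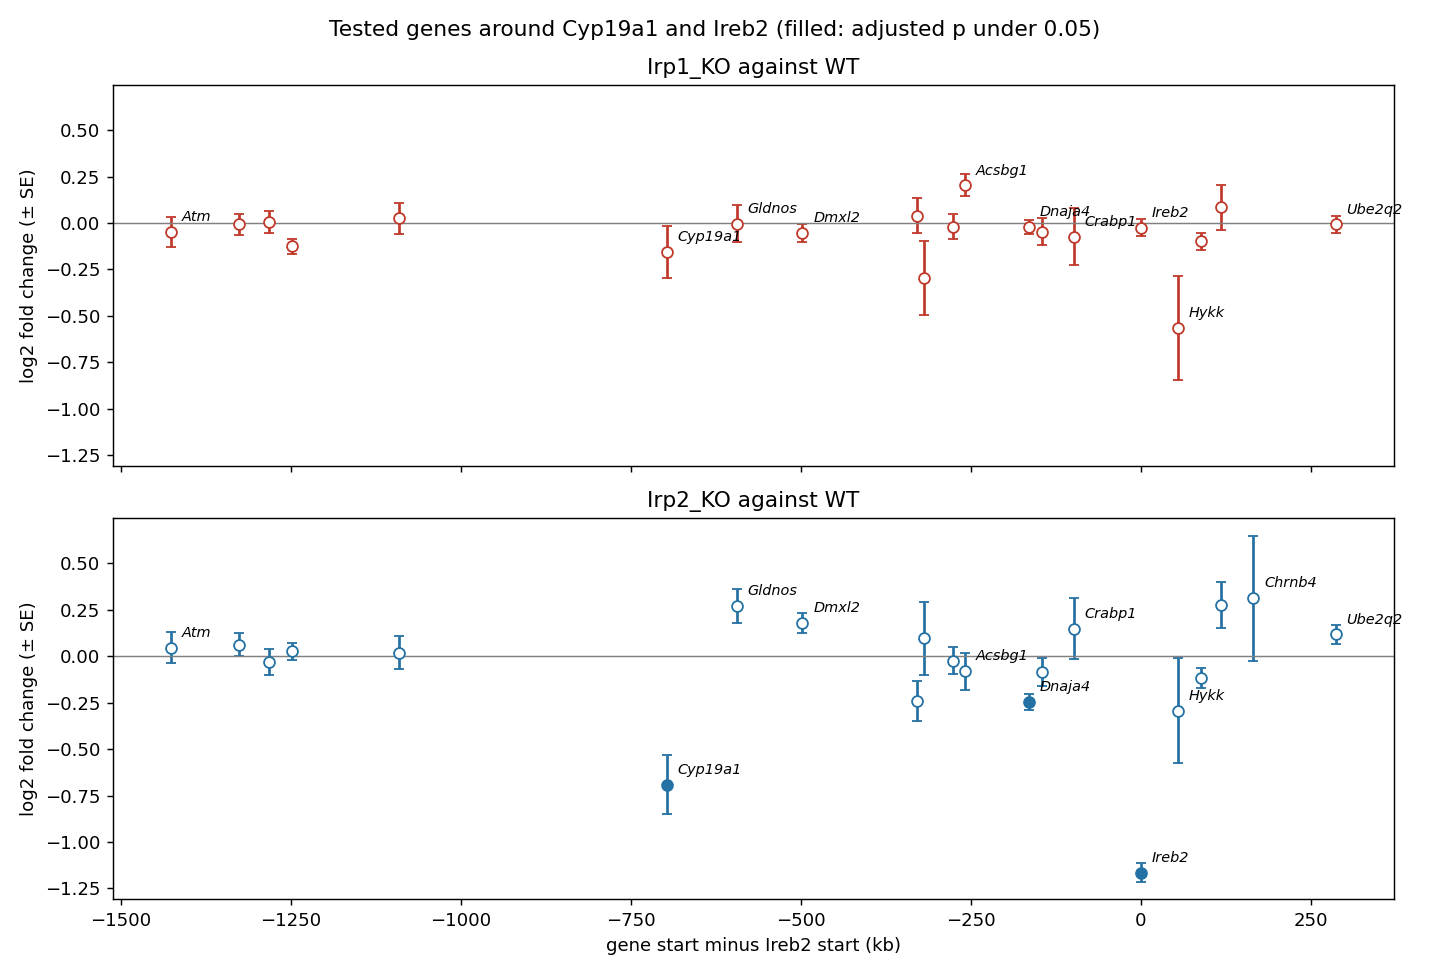
Log2 fold change (y axis, ± SE) against WT of the tested genes around Cyp19a1 and Ireb2, placed by the distance of their start from that of Ireb2 (x axis, kb), for Irp1_KO (top) and Irp2_KO (bottom), with filled points where the adjusted p was under 0.05. In Irp2_KO the filled points are Cyp19a1 at -0.69, Dnaja4 at -0.25 and Ireb2 at -1.16, with unfilled points on both sides of 0 between them.

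After each sample's genotype mean was subtracted, the genes rose and fell together across the 11 samples to unequal degrees. Over the 45 pairs Pearson's r ran from 0.324 to 0.985 with a median of 0.597, given as a description since the samples share their libraries' composition. Cyp11a1 and Cyp17a1 kept the closest company (r = 0.985, Spearman's rho = 1, n = 11), and Cyp11a1 with Lhcgr had r = 0.959 (rho = 0.964). Because WT split into low and high samples for these genes, the 7 knockout samples were also taken alone. There r was 0.958 for Cyp11a1 with Cyp17a1 and 0.751 for Cyp11a1 with Lhcgr, and the median over the 45 pairs was 0.45 with a range of -0.321 to 0.958. Hsd3b1 and Hsd3b6, the close copies, had r = 0.484 (rho = 0.545) over the 11 samples. The lowest r was that of Cyp11a1 with Insl3 (r = 0.324, rho = 0.591), and the lowest rho that of Hsd3b6 with Cyp19a1 (r = 0.368, rho = 0.273).

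WT replicates 1 and 2, lower than replicates 3 and 4 for 9 of the 10 genes (all but Cyp19a1), summed to 811 and 781 CPM over the 10 genes against 1123 and 1052 CPM in WT replicates 3 and 4. The sum of Sertoli markers was likewise lower in replicates 1 and 2, by a smaller step, at 1473, 1472, 1544 and 1566 CPM in WT replicates 1 to 4. Clu alone held 803, 797, 859 and 868 CPM of these sums. Sox9, Rhox8, Ctsl and Aard split in the same way, while Amhr2, Cst12, Fshr, Inhbb, Gata1 and Trf did not split. Amh went the other way, with 1.90, 1.74, 1.21 and 1.27 CPM. Elongating spermatid markers summed to 28733, 29408, 28194 and 28841 CPM and macrophage markers to 75.4, 93.8, 80.2 and 74.7 CPM. Library totals were 18257228 and 16358055 in replicates 1 and 2 and 17323004 and 18017776 in replicates 3 and 4. The part of these measures in the low levels was not tested.

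**Figure D4:**
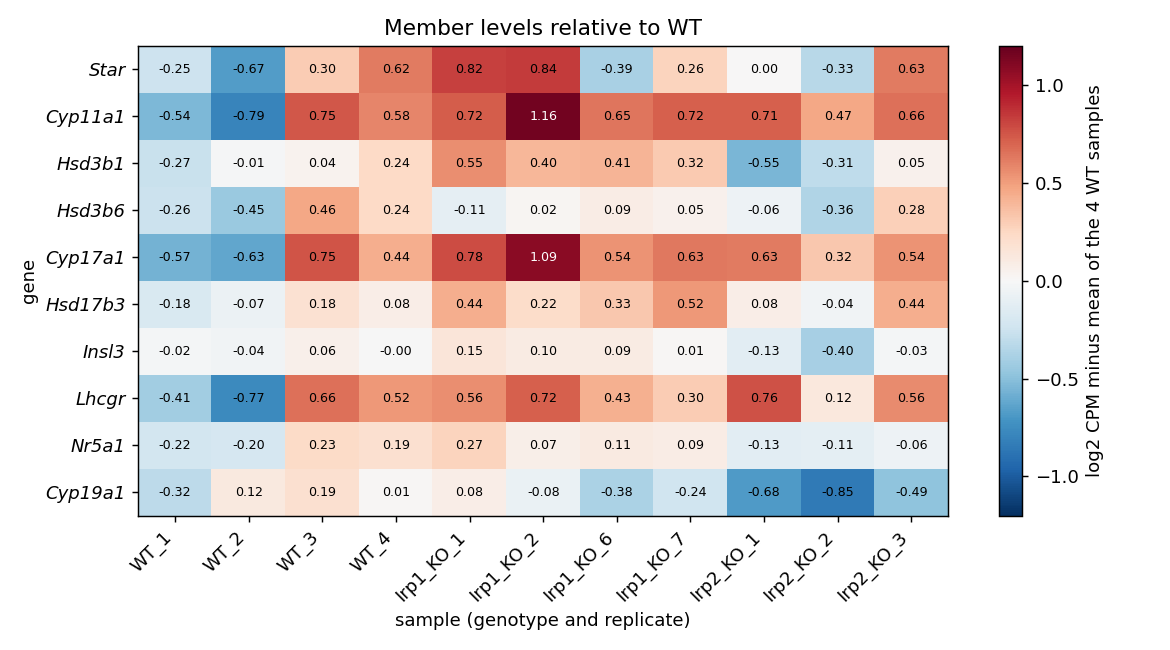
Log2 CPM of each gene (rows) in each sample (columns) minus the mean of the 4 WT samples, in colour and as numbers. The row of Cyp11a1 goes from -0.79 in WT replicate 2 to 0.75 in WT replicate 3, a wider step than between the genotypes' means, while the row of Insl3 stays between -0.04 and 0.06 in WT.

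Of 97 listed genes in 7 groups that are not among the 10, 79 were tested in Irp1_KO against WT and 3 were called, all higher (3.8%). In Irp2_KO against WT 5 of 78 were called, all lower (6.41%), and between the knockouts 12 of 80, all higher in Irp1_KO (15%). Over all tested genes these shares were 1.02%, 1.21% and 4.69%. The lists were chosen with earlier results of these data known, so their shares beside those of all genes are a description and not a test. Of the 5 genes called lower in Irp2_KO, 4 were the kallikreins described below. At an unadjusted p under 0.05 stood 21, 13 and 17 of the listed genes. Among 15 genes of cholesterol and electron supply, none was called against WT in either knockout (edgeR), with 4 in Irp1_KO and 1 in Irp2_KO at an unadjusted p under 0.05. Fdxr, the ferredoxin reductase that feeds electrons to CYP11A1, had 15.9 to 21.5 CPM in WT, and every Irp1_KO sample (22.3 CPM on average) was above every Irp2_KO sample (17.9 CPM on average). It was called between the knockouts (log2 fold change 0.31, SE 0.081, adjusted p = 0.0267, edgeR), but not without Irp1_KO replicate 1, 2 or 7 or Irp2_KO replicate 1 or 2 (adjusted p up to 0.188, edgeR). Among other steroid enzymes Sult1e1, the estrogen sulfotransferase of Leydig cells, was the single gene called, also listed among the Leydig genes below, at 5.03, 7.69 and 8.57 CPM in Irp2_KO against 9.52 to 13.6 CPM in WT and 11.1 to 12.5 CPM in Irp1_KO. Its log2 fold change was -0.70 against WT (SE 0.16, adjusted p = 0.0488, edgeR), and it was not called without Irp2_KO replicate 1 or 2 or WT replicate 2, 3 or 4 (adjusted p up to 0.158, edgeR) or with no count filter (adjusted p = 0.0554, edgeR). Between the knockouts it was 0.72 (SE 0.14, adjusted p = 0.00288, edgeR) and called in all 7.

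None of the 14 genes of cyclic AMP signalling was called in any comparison (edgeR), with 2, 0 and 0 at an unadjusted p under 0.05. Akap1, which anchors protein kinase A at the mitochondrion, had 987 CPM in Irp1_KO, 964 CPM in Irp2_KO and 1007 CPM in WT on average, and Pde8a, a cyclic AMP phosphodiesterase, 259, 271 and 273 CPM. Both are also expressed by germ cells, which make up most of the tissue. Among 18 tested regulators of Leydig cells, Nr4a1 was the only one called. This nuclear receptor, which activates steroidogenic promoters, had 57.6 to 61.1 CPM in Irp1_KO, 47.2 to 51.2 CPM in WT and 42.8 to 45.5 CPM in Irp2_KO, with no overlap between the groups. The log2 fold change was 0.27 in Irp1_KO against WT (SE 0.047, adjusted p = 0.00194, edgeR), and 0.41 between the knockouts (SE 0.053, adjusted p = 4.77e-05, edgeR). Both calls remained in every fit without 1 library (adjusted p up to 0.0138, edgeR).

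Among the listed genes of Leydig cells, chosen with earlier results of these data known, the largest differences lay outside steroid synthesis. They were in 4 kallikrein genes that Leydig cells of the mouse express. These kallikreins belong to a multigene family of close copies, so their separate counts are uncertain. Klk1b21 had 2.36, 2.15 and 2.42 CPM in Irp2_KO, 6.72, 7.27, 12.3 and 7.58 CPM in WT and 12.9, 9.08, 10.7 and 14.0 CPM in Irp1_KO. Its log2 fold change was -1.87 in Irp2_KO against WT (SE 0.21, adjusted p = 7.95e-05, edgeR) and 2.32 between the knockouts (SE 0.16, adjusted p = 3.49e-09, edgeR). Klk1b24 had 3.43, 1.74 and 3.05 CPM in Irp2_KO against 6.28 to 8.10 CPM in WT (log2 fold change -1.35, SE 0.17, adjusted p = 7.95e-05, edgeR). Klk1b27 had 1.85 to 2.27 CPM in Irp2_KO and 4.42 to 8.28 CPM in WT (log2 fold change -1.44, SE 0.21, adjusted p = 6.09e-04, edgeR). Klk1b22, the least expressed, had 0.154 to 0.356 CPM and 0.885 to 1.34 CPM (log2 fold change -2.02, SE 0.37, adjusted p = 0.00396, edgeR). Each of the 4 was called lower in Irp2_KO than in WT and than in Irp1_KO in all 7 fits without 1 library. In Irp1_KO against WT none of the 4 was called. Among 11 tested genes of this list 5 were called lower in Irp2_KO than in WT, the 4 kallikreins and Sult1e1, and Fabp3, a fatty acid binding protein, was called higher in Irp1_KO than in WT (log2 fold change 0.24, SE 0.048, adjusted p = 0.00822, edgeR). The Fabp3 call was lost without Irp1_KO replicate 1 or WT replicate 2 (adjusted p up to 0.074, edgeR) and in 1 fit of all 11 samples (adjusted p = 0.212, edgeR).

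**Figure D5:**
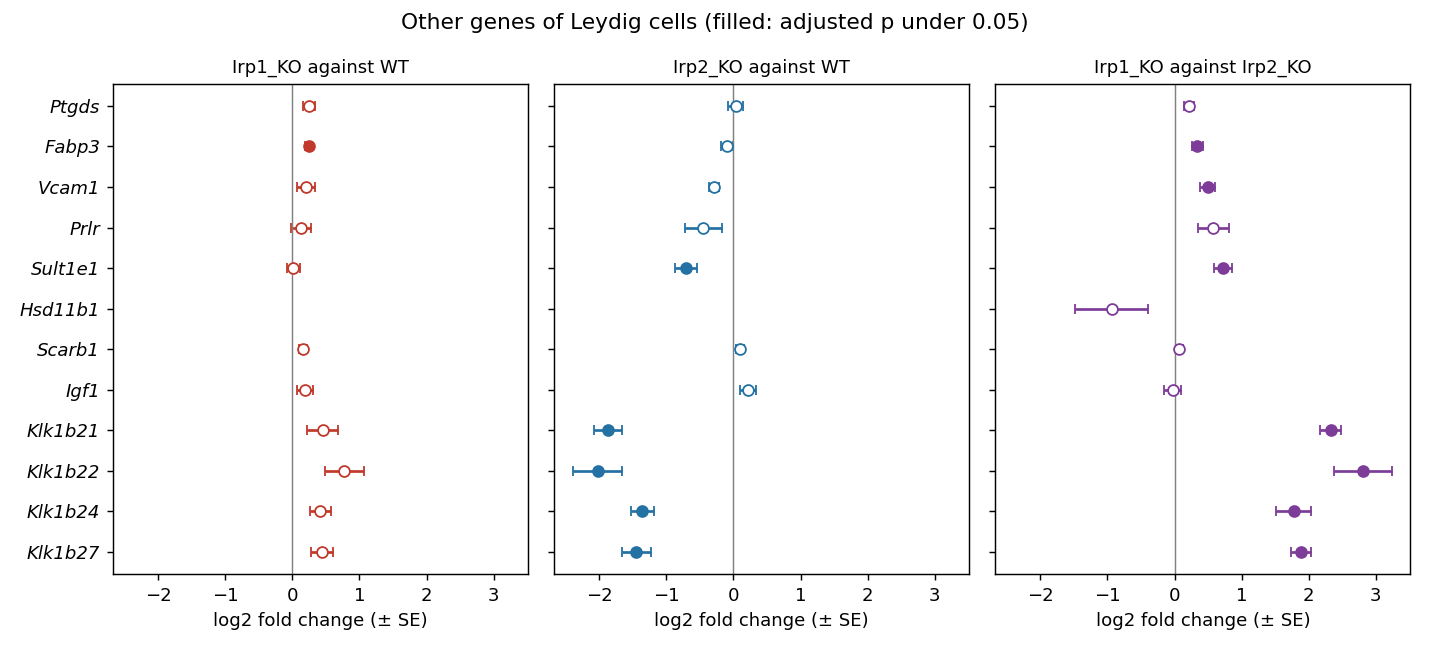
Log2 fold change (x axis, ± SE, one scale for all panels) of the 12 listed other genes of Leydig cells in the 3 comparisons, filled where the adjusted p of edgeR was under 0.05 and left out where a gene was not tested. The 4 kallikreins lie between -1.35 and -2.02 in Irp2_KO against WT, far from the other genes, and are unfilled in Irp1_KO against WT.

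Of 7 tested hormone receptors and targets, Eppin, an androgen-dependent protease inhibitor of Sertoli cells, was called higher in Irp1_KO than in WT (26.2 against 20.9 CPM on average, log2 fold change 0.32, SE 0.077, adjusted p = 0.035, edgeR), but not without Irp1_KO replicate 1 or 7 or WT replicate 2, 3 or 4 (adjusted p up to 0.221, edgeR). Between the knockouts Eppin (log2 fold change 0.33, adjusted p = 0.0166, edgeR) and Rhox5, an androgen-dependent homeobox gene of Sertoli cells (log2 fold change 0.36, adjusted p = 0.0394, edgeR), were higher in Irp1_KO. Eppin lost this call without Irp1_KO replicate 1 or Irp2_KO replicate 2 or 3 (adjusted p up to 0.115, edgeR), and Rhox5 without Irp1_KO replicate 1, 2 or 6 or Irp2_KO replicate 2 or 3 (adjusted p up to 0.227, edgeR) and with DESeq2 (adjusted p = 0.0537). Among adrenal and fetal Leydig genes 1 of 3 tested was called between the knockouts. This was Mrap, the accessory protein of the ACTH receptor, with 2.15 to 4.09 CPM in Irp1_KO and 1.42 to 2.05 CPM in Irp2_KO (log2 fold change 0.80, SE 0.23, adjusted p = 0.0437, edgeR), not called without replicate 1 or 2 of either knockout (adjusted p up to 0.185, edgeR) or with DESeq2 (adjusted p = 0.0672). The ACTH receptor Mc2r itself did not exceed 0.0628 CPM in any sample, and the adrenal enzymes Cyp11b1 and Cyp11b2 did not exceed 0.168 and 0.186 CPM.

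Some markers of the surrounding cells differed in the same comparisons. The 10 genes together summed to 1048 to 1244 CPM in Irp1_KO, 809 to 1059 CPM in Irp2_KO and 781 to 1123 CPM in WT. Of 12 Sertoli markers 3 were called higher in Irp1_KO than in Irp2_KO (Amh, Fshr and Trf, log2 fold change 0.86, 0.83 and 0.37), the same direction as Hsd3b1, Insl3 and Nr5a1, and Clu was called in Irp1_KO against WT (log2 fold change 0.16, adjusted p = 0.0473, edgeR), beside Hsd17b3. All 4 calls were lost without Irp1_KO replicate 1, among other libraries (adjusted p up to 0.307, edgeR). Amh and Fshr also lost theirs with DESeq2 (adjusted p = 0.0762 and 0.0856), and Fshr and Clu in 1 fit of all 11 samples (adjusted p = 0.0551 and 0.109, edgeR). The Sertoli sum was 1580 to 1799 CPM in Irp1_KO, 1414 to 1631 CPM in Irp2_KO and 1472 to 1566 CPM in WT. Nr5a1 is also expressed by Sertoli cells, and Cyp19a1 by germ cells and Sertoli cells. Of the endothelial markers Vwf was called higher in Irp2_KO (log2 fold change 0.37 against WT, adjusted p = 0.0127, edgeR, lost without Irp2_KO replicate 2 or WT replicate 3 with adjusted p up to 0.124). The endothelial sum, which includes Vwf, was at least 41.4 CPM there against 35.8 to 36.7 CPM in WT and 33.4 to 36.2 CPM in Irp1_KO. Vwf alone had 22.3 CPM on average in Irp2_KO and 17.3 CPM in WT. Of the 6 endothelial markers 4 had a positive and 2 a negative log2 fold change in Irp2_KO against WT, and only Vwf was called (edgeR). No marker of macrophages, spermatocytes or elongating spermatids was called in any comparison (edgeR), with 0 to 3 of 10 in each at an unadjusted p under 0.05. Of the other lists Actg2 of the myoid cells and Lyzl1 of round spermatids were called higher, and Sall4 of the spermatogonia lower, in Irp1_KO than in Irp2_KO, and each lost its call in 4 or 5 of 7 fits without 1 library, Sall4 also with DESeq2 (adjusted p = 0.0866). Blood markers summed to 37.3 to 57.1 CPM in Irp1_KO, 24.7 to 38.5 CPM in Irp2_KO and 30.4 to 37.4 CPM in WT, with none called (edgeR) and 0 at an unadjusted p under 0.05. The sum of epididymis markers did not exceed 0.566 CPM in any sample. The part of these cell types in the differences of the 10 genes was not tested.

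The 10 genes were also averaged into 1 profile over the 11 samples, each as log2 CPM with its genotype mean taken off and scaled to an SD of 1, and 14974 other genes were ranked by their likeness to it. The median r was -0.00398, and 36 genes were above 0.9. At the top stood Scd2, a stearoyl-CoA desaturase (r = 0.99), Acsbg1, an acyl-CoA synthetase (r = 0.976), Plxnd1, a semaphorin receptor (r = 0.976), Fdxr (r = 0.967) and Sepp1, the selenium carrier selenoprotein P (r = 0.955). Rusc1 (r = 0.955), the epoxide hydrolase Ephx1 (r = 0.947), the ligand Wnt5a (r = 0.945), the alanine aminotransferase Gpt2 (r = 0.943) and the splicing factor Srsf1 (r = 0.942) followed. Spearman's rho of these 10 genes was 0.927 to 0.973, r was 0.919 to 0.984 without WT replicates 3 and 1, the samples farthest from the median of the profile, and 0.843 to 0.97 over the 7 knockout samples alone. These values describe the ranking and carry no test. Of these 10 genes, Scd2, Acsbg1, Fdxr, Sepp1, Ephx1 and Gpt2 were called between the knockouts (edgeR), all higher in Irp1_KO, against 2.92% of all tested genes. The 10 were picked for their likeness in the same 11 samples and vary together, so these shares are a description and not a test. Scd2, Fdxr and Sepp1 kept this call in 2 of the 7 fits without 1 library and Acsbg1 in 6 of 7. Ephx1 and Gpt2 kept it in all 7, at 73.3 against 52.9 CPM (log2 fold change 0.47, SE 0.072, adjusted p = 4.47e-04, edgeR) and 46.5 against 34.4 CPM (log2 fold change 0.44, SE 0.068, adjusted p = 3.11e-04, edgeR). Neither was called in 1 fit of all 11 samples (adjusted p = 0.227 and 0.16, edgeR). None of the 10 was called in either knockout against WT (edgeR), with 6 in Irp1_KO and 0 in Irp2_KO at an unadjusted p under 0.05. Acsbg1 is also 1 of the 10 genes taken between Cyp19a1 and Ireb2, with a log2 fold change of -0.081 in Irp2_KO against WT (SE 0.10, adjusted p = 0.911, edgeR). In contrast to Fdxr, Fabp3 (r = 0.568) and Nr4a1 (r = -0.0854) were far less like the profile, and Klk1b21 had r = 0.562.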

How the data were processed

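Stranded poly(A) RNA of 11 testis samples was sequenced with paired-end reads. The values deposited by the authors were whole-number counts of reads for each gene symbol, without normalization, from an nf-core run on mm10. Which program counted them was not given in the sources used here. The submitters' processing notes name bcl2fastq 2.20.0.422 for the reads. Each genotype pair was tested with edgeR 4.0.16 in R 4.3.3 (TMM, filterByExpr, robust quasi-likelihood fit, Benjamini-Hochberg over 16002 to 16281 genes), with DESeq2 1.42.0 as an alternative. Centred log2 CPM used a prior count of 2. Nothing in the labels states how the replicates were bred or collected, so p-values measure the spread between these samples, and counting error alone is smaller (chi-square per degree of freedom between replicates 1.97 or more, so none was a copy). The fit was tested on simulated data in which 200 genes changed by 1 on the log2 scale. It called 92.5% to 95% of these genes over the 3 comparisons, and 5.94% to 7.04% of its calls were false. Smaller changes were not simulated. The 10 genes and all lists were chosen with earlier results of these data known. Named beside the 10 were the targeted genes, up to 4 called genes of each list and comparison (where none passed, up to 2 of the highest CPM), genes around Cyp19a1 and Ireb2, and the 10 genes most like the profile. Positions and sequences came from RefSeq (GRCm38.p6) and GENCODE vM21, read with Python 3.11.15 and Biopython 1.88.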

Additional observations from a re-analysis of the deposited data

Results flagged for a closer look

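Cyp11a1 in Irp1_KO replicate 2 stood apart from the other 3 Irp1_KO samples, since its gap to the nearest sample was 0.872 of the group's range, past Dixon's 95% critical value for 4 samples. Chance gives about 1 such value in 20 groups, and 1 was found in the 20 groups of 4 tested. Irp1_KO and Irp2_KO samples differed, by the direct test with edgeR, for Hsd3b1 (0.68 on the log2 scale, adjusted p = 0.017), Insl3 (0.27, adjusted p = 0.0425) and Nr5a1 (0.24, adjusted p = 0.0369). Each of these calls was lost in some of the fits without 1 library. The genotype cannot be told apart there from a difference in age, strain, allele or litter. The column of Irp1_KO replicate 6 carries the letter R where all others carry L, which the sources do not explain, and Star, Cyp11a1, Cyp17a1 and Cyp19a1 had their lowest Irp1_KO levels in it. Hsd3b1, Insl3 and Lhcgr were lowest in replicate 7, Hsd17b3 and Nr5a1 in replicate 2 and Hsd3b6 in replicate 1, while Hsd3b6 was highest in replicate 6.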

How the results depend on the processing

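Of the 10 genes, 1 was called in Irp1_KO against WT, which became 2 with at least 10 counts in every sample, 2 with DESeq2, 0 in 1 fit of all 11 samples and 0 to 2 without 1 library. In Irp2_KO against WT the count was 0 to 2 and between the knockouts 0 to 5 without 1 library. The other listed genes gave 1 to 5 calls in Irp1_KO against WT and 6 to 12 between the knockouts without 1 library. With the replicate number as a block, 8 of the 10 genes and 13 other listed genes were called in Irp1_KO against WT and 6 of the 10 between the knockouts, on only 2 shared numbers each. These numbers were replicates 1 and 2, so the genotype effect in these 2 fits came from those samples alone. WT replicates 1 and 2 were the lower WT samples for 9 of the 10 genes. In Irp2_KO against WT the block called Star (adjusted p = 0.0195, edgeR) and not Cyp19a1 (adjusted p = 0.0895, edgeR). Same-numbered samples deviated together with r of 0.0103 to 0.146, so the numbers were not taken to pair the samples, although 4 of 4, 5 of 6 and 4 of 4 samples correlated best with their own number in the comparisons in the order above. Under the block the log2 fold change turned for Hsd3b6 to 0.31 in Irp1_KO and 0.033 in Irp2_KO against WT, and for Cyp19a1 to 0.096 in Irp1_KO against WT. Without 1 library Hsd3b6 ran from -0.16 to 0.14 in Irp1_KO and from -0.25 to 0.099 in Irp2_KO against WT, and from -0.11 to 0.22 between the knockouts. Star in Irp2_KO against WT ran from -0.24 to 0.31, and Lhcgr between the knockouts from -0.16 to 0.16. Apart from these, every direction of the 10 genes held, the causes of the changes were not tested, and 3 or 4 samples a group limit what could be called.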
